A study of Mus musculus with 10 samples.

Results

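The genes described here are 10 G protein-coupled receptor genes that modulate sensory nerve activity: the opioid receptor genes Oprm1, Oprd1, Oprk1 and Oprl1, the cannabinoid receptor gene Cnr1, the GABA-B receptor subunit genes Gabbr1 and Gabbr2, and the adenosine receptor genes Adora1, Adora2a and Adora2b. They were chosen by symbol, and all 10 were found among the 24421 rows of the count files. The files hold RNA sequencing counts of 10 pools of mouse vagal sensory neurons picked one by one under the microscope, in 5 groups of 2 pools. In the Trpv1-tdTomato selection, Trpv1-tdTomato mice (Trpv1-Cre crossed with a tdTomato reporter) gave pools of 30 red nodose neurons, 30 red jugular neurons and 15 nodose neurons without the reporter. They are called Trpv1+ nodose, Trpv1+ jugular and Trpv1- nodose. In the capsaicin selection, C57BL/6 mice gave nodose pools of 14 and 15 neurons in which both capsaicin and the P2X agonist α,β-methylene-ATP had evoked a calcium response, and jugular pools of 15 and 16 neurons in which only capsaicin had done so. The labels give no ages. A Cre reporter also marks cells that used the Trpv1 promoter only earlier in life, the pools of the Trpv1-tdTomato selection came from the same pair of mice, and the selection goes together with strain, sequencing core and depth, so that these cannot be told apart.

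Opioid receptors, the CB1 cannabinoid receptor, GABA-B receptors and the adenosine A1 receptor couple to the inhibitory Gi/o proteins. Through these they lower cyclic AMP, close N- and P/Q-type calcium channels and open GIRK potassium channels, and agonists at several of them dampen transmitter release from sensory nerves. The adenosine receptors encoded by Adora2a and Adora2b couple to Gs and raise cyclic AMP instead, and the GABA-B receptor reaches the cell surface and signals as a pair of both subunits, GABA-B1 and GABA-B2. Nodose neurons arise from placodes and innervate mainly the viscera, and jugular neurons arise from the neural crest and resemble somatosensory neurons.

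Levels are given as normalized CPM, the count over a size factor, scaled to the geometric mean of the totals, so that they are relative to the depth of each pool. Pools of the Trpv1-tdTomato selection held 148452506 to 167704327 counts and those of the capsaicin selection 17666710 to 30810863. At these depths 3 counts, the smallest value read as more than 0, stand for 0.0144 to 0.0191 CPM and for 0.146 to 0.217 CPM. The pools were made by amplification of very little RNA and the replicates varied widely: of the genes with at least 10 CPM in one pool of a group, 15.4% (Trpv1- nodose) to 44.4% (capsaicin nodose) had under 1 CPM in the other. The neuron markers were over 3 counts in every pool. Trpv1 was at 250 and 146 CPM in Trpv1+ nodose but at 22.1 and 31.9 CPM in Trpv1+ jugular pools. Capsaicin nodose pools held 264 and 307 CPM of Trpv1, and capsaicin jugular pools 276 and 87.4 CPM. In Trpv1- nodose pools it was at 0.0431 and 0.0413 CPM. The Trpv1+ nodose and Trpv1+ jugular pools thus differed in Trpv1 itself, and the part of this in other differences between them was not tested. The nodose marker P2rx2 had 76.1 to 679 CPM in nodose pools and at most 0.292 CPM in jugular pools, Hoxb5 had 289 to 517 CPM against at most 0.243 CPM, and the summed jugular markers Prdm12, Tac1 and Gfra3 had 411 to 1615 CPM in jugular pools and at most 1.54 CPM in nodose pools. The 9 glial markers, some of which neurons use too, summed to 1960 to 5004 CPM in every pool, in overlapping ranges for both ganglia within each selection. Ptprc, Aif1, Csf1r and C1qa, 4 of the 5 macrophage markers, were at 0 in all 10 pools. The fifth, Cd68, had 93.8 CPM in the first capsaicin nodose pool, 22.1 CPM in the first capsaicin jugular pool, 5.78 CPM in the first Trpv1+ nodose pool and at most 0.145 CPM elsewhere. Glial RNA from cells attached to neurons was not tested for its part in any result.

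The 10 receptors fell into a broadly detected part and a sporadic part. Gabbr1 and Adora1 reached 10 CPM in every pool and Cnr1 in 9 of 10. Gabbr2 reached it in 4 pools, Oprl1 in 3, Adora2a in 2, Adora2b and Oprk1 in 1 each, and Oprm1 and Oprd1 in none. In all, 4 receptors (Cnr1, Gabbr1, Gabbr2 and Adora1) had at least 10 CPM in both pools of a group, as had 32.1% of all genes, and Gabbr1 and Adora1 did so in all 5 groups, as had 7.62% of all genes. 

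**Figure D1:**
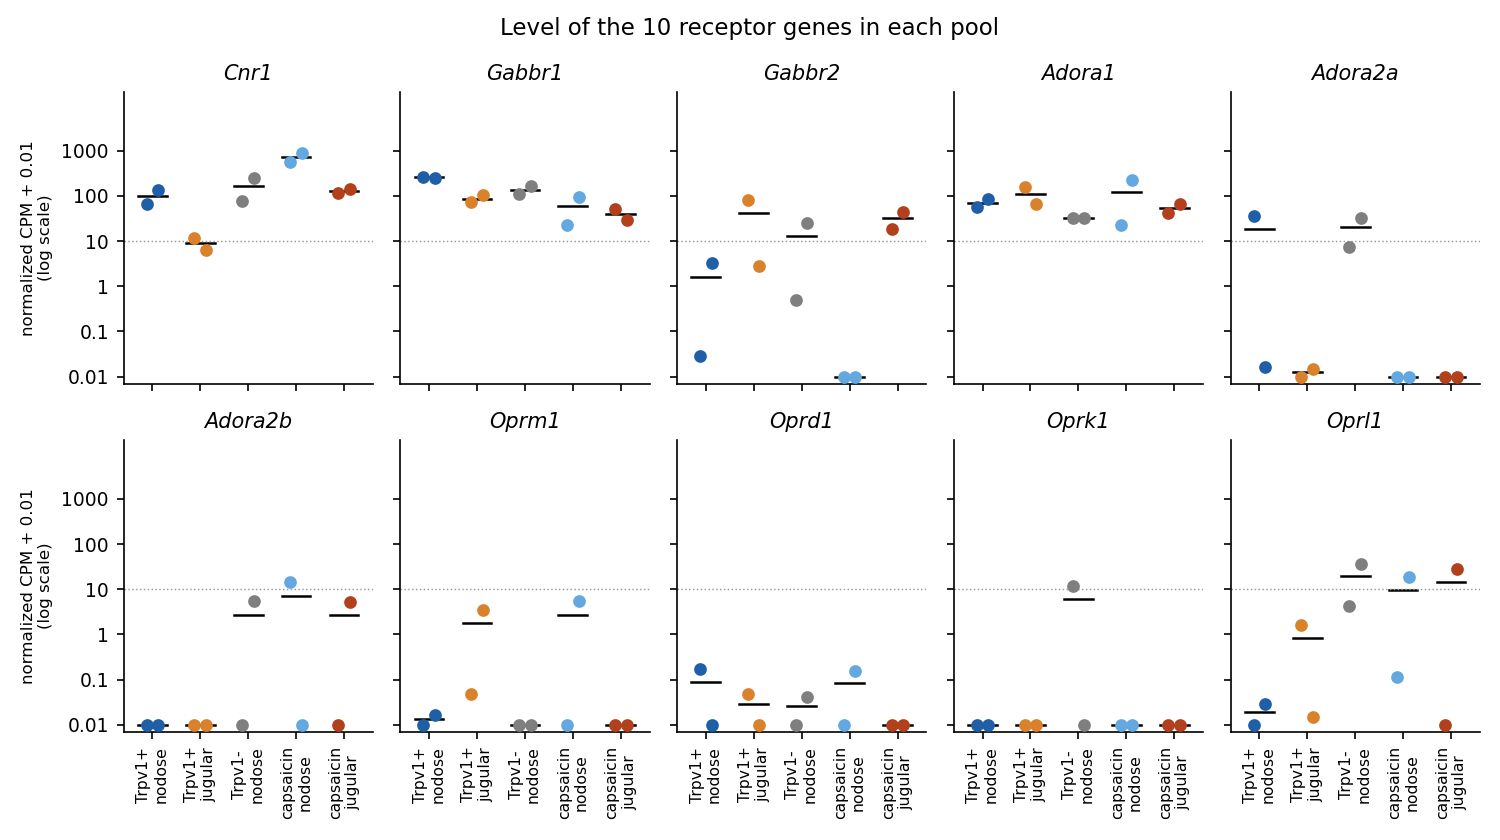
Normalized CPM plus 0.01 on a log axis for the 10 receptor genes, 1 point per pool, 2 pools in each of the 5 groups, with a bar at the group mean and a dotted line at 10 CPM. Cnr1 is lower in both jugular groups than in the nodose group of the same selection, Gabbr2 is at 0 in both capsaicin nodose pools, and the opioid receptor genes are at or near 0 in most pools.

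Cnr1 encodes the CB1 receptor, the main neuronal target of endocannabinoids (GRCm38, chromosome 4, 33924593 to 33948831, plus strand). Its level was 67.5 and 132 CPM in the Trpv1+ nodose pools and 11.8 and 6.25 CPM in the Trpv1+ jugular pools. Capsaicin nodose pools had 557 and 902 CPM against 114 and 145 CPM in capsaicin jugular pools. Both nodose pools lay above both jugular pools in each selection. Within 1 selection 42.1% of the genes tested had groups that did not overlap, in either direction, and a gap in the same direction in both selections was seen for 9.96% of the 11959 genes tested across both. The Trpv1- nodose pools had 78.1 and 246 CPM, overlapping the Trpv1+ nodose pools.

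For Cnr1 the jugular minus nodose difference in the Trpv1-tdTomato selection was -3.46 ± 1.07 on the log2 scale (SE, n = 2 against 2 pools), and edgeR's quasi-likelihood test with Benjamini-Hochberg adjustment over all genes gave an adjusted p of 0.323. For the capsaicin selection the difference was -2.10 ± 0.64, with an edgeR adjusted p of 0.352. With the selection as a covariate over 8 pools it was -2.82 ± 0.62 beside a median of 0.18 over all genes tested, and the edgeR adjusted p was 0.116, outside the threshold of 0.1. DESeq2 called Cnr1 lower in jugular neurons across both selections (adjusted p = 6.16e-05) and in the Trpv1-tdTomato selection (adjusted p = 0.0985), but not in the capsaicin selection (adjusted p = 0.723). The Cnr1 difference between the ganglia did not pass the interaction test between the selections (1.38 ± 1.08 on the log2 scale, edgeR adjusted p = 0.739). An exact permutation test of Cnr1 within selections, over 36 arrangements, gave a two-sided p of 0.0556 (0.222 adjusted over 4 genes), which is the smallest this design allows.

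Gabbr1 encodes the GABA-B subunit that binds GABA (GRCm38, chromosome 17, 37045966 to 37075067, plus strand). Its level was 264 and 255 CPM in Trpv1+ nodose, 72 and 103 CPM in Trpv1+ jugular and 110 and 164 CPM in Trpv1- nodose pools. Capsaicin nodose pools had 23.2 and 94.1 CPM against 50.6 and 29.8 CPM in capsaicin jugular pools. Trpv1+ nodose pools were thus above the other pools of their selection. Groups did not overlap for 42.1% of the genes tested against Trpv1+ jugular and 40.7% of those tested against Trpv1- nodose pools. For Gabbr1 the ganglia overlapped in the capsaicin selection. The jugular minus nodose difference of Gabbr1 was -1.56 ± 0.44 (log2, SE) in the Trpv1-tdTomato selection (edgeR adjusted p = 0.321) and -0.11 ± 1.81 in the capsaicin selection (edgeR adjusted p = 1). Trpv1+ minus Trpv1- nodose it was 0.96 ± 0.38 (edgeR adjusted p = 0.448). In none of these did Gabbr1 pass the test.

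Gabbr2 encodes the partner subunit, which couples the receptor to its G protein (GRCm38, chromosome 4, 46662305 to 46991873, minus strand). No count of it was seen in either capsaicin nodose pool, where 3 counts would stand for 0.155 and 0.217 CPM, against 18.6 and 45.1 CPM (382 and 873 counts) in the capsaicin jugular pools. Taken against 3 counts in each nodose library, the mean level of Gabbr2 was at least 171-fold higher in the capsaicin jugular pools, and at least 99.8-fold without the second of these pools. The lower jugular pool lay 85.6-fold above the higher of the nodose limits. These limits cover counting error only, not the wide spread between replicates. The 4 fibroblast markers also summed higher in these pools, at 296 and 51.5 CPM against 47.6 and 0 CPM in capsaicin nodose pools, with Col1a1 and Pdgfra at 0 in all 4, and their part in the Gabbr2 values was not tested. In the Trpv1-tdTomato selection it was 0.0191 and 3.21 CPM in Trpv1+ nodose, 81.3 and 2.83 CPM in Trpv1+ jugular and 0.493 and 24.9 CPM in Trpv1- nodose pools. The groups of that selection overlapped, with the first Trpv1+ jugular pool alone far above the Trpv1+ nodose pools. DESeq2 called Gabbr2 higher in jugular neurons in the capsaicin selection (adjusted p = 0.00199) and across both selections (adjusted p = 0.00119), and edgeR called it in neither (adjusted p = 0.352 and 0.407). The size of a fitted difference against libraries at 0 depends on the prior count and is no measure of the fold. In the Trpv1-tdTomato selection the edgeR difference of Gabbr2 was 4.69 ± 3.05 (log2, SE, adjusted p = 0.725), and without the first Trpv1+ jugular pool it was 0.81. The Gabbr2 difference between the ganglia did not pass the test of the interaction with the selection (edgeR adjusted p = 0.569).

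Since only both subunits together form the receptor, their levels were set side by side within each pool, per kb of exon (7.76 kb for Gabbr1 and 6.69 kb for Gabbr2). Gabbr2 per kb was 0.00841% and 1.46% of Gabbr1 in Trpv1+ nodose, 0.519% and 17.6% in Trpv1- nodose and 0% in both capsaicin nodose pools. In jugular pools it was 131% and 3.2% (Trpv1+) and 42.6% and 176% (capsaicin). Thus 3 of the 4 jugular pools had more Gabbr2 relative to Gabbr1 than any nodose pool, and the second Trpv1+ jugular pool lay within the range of the nodose pools. This ratio was formed after the values were seen and was not tested.

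**Figure D2:**
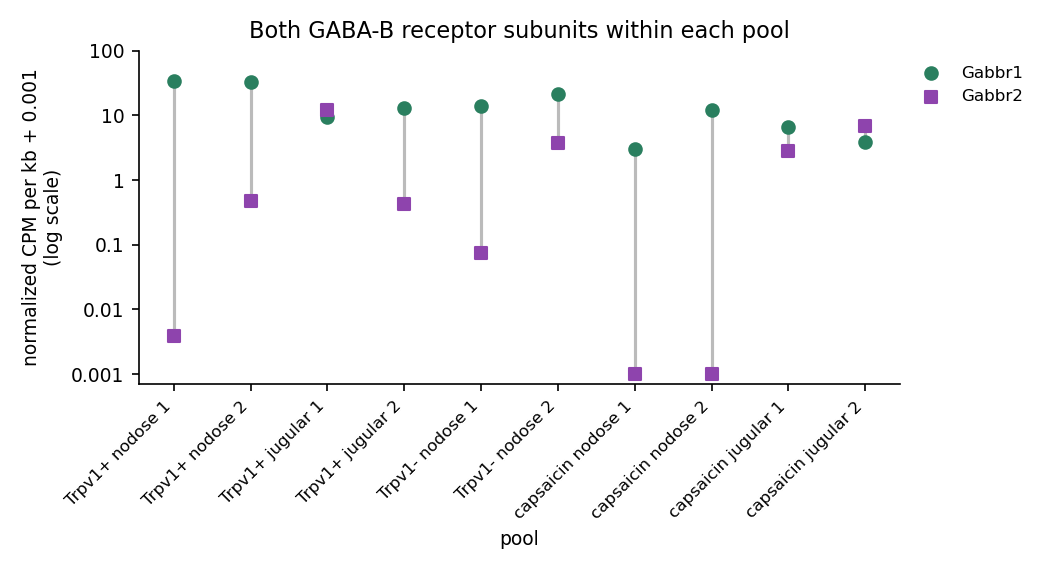
Normalized CPM per kb of exon plus 0.001, on a log axis, of Gabbr1 (circles) and Gabbr2 (squares) in each of the 10 pools, joined by a line within a pool. Gabbr1 lies between 2.99 and 34.0 CPM per kb in every pool, and Gabbr2 comes near it or exceeds it only in the first Trpv1+ jugular pool and both capsaicin jugular pools.

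Adora1 encodes the Gi/o-coupled adenosine A1 receptor (GRCm38, chromosome 1, 134199223 to 134235431, minus strand). Its level was 57.4 and 85.5 CPM in Trpv1+ nodose, 156 and 64.9 CPM in Trpv1+ jugular, 23.1 and 221 CPM in capsaicin nodose and 41.6 and 67.4 CPM in capsaicin jugular pools. The ganglia overlapped in each selection. The jugular minus nodose difference of Adora1 was 0.63 ± 0.74 (log2, SE) in the Trpv1-tdTomato selection (edgeR adjusted p = 0.901) and -0.66 ± 1.57 in the capsaicin selection (edgeR adjusted p = 1), and neither passed the test. Trpv1- nodose pools had the lowest group mean of Adora1, at 32.3 and 31.8 CPM, below both Trpv1+ nodose pools. That difference (1.19 ± 0.88, edgeR adjusted p = 0.791) did not pass the test either, and 40.7% of the genes tested there had groups without overlap. The exons of Adora1 share 1162 bases with those of Mybph on the other strand, which had 0 counts in all 10 pools.

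Adora2a, one of the Gs-coupled receptor genes (GRCm38, chromosome 10, 75316877 to 75334784, plus strand), was over 3 counts in 3 pools, all nodose pools of the Trpv1-tdTomato selection. Its level was 36.2 and 0.00607 CPM in Trpv1+ nodose and 7.55 and 33 CPM in Trpv1- nodose pools, and at most 0.005 CPM in the jugular pools of that selection. It was at 0 in all 4 pools of the capsaicin selection, which allows up to 0.146 to 0.217 CPM. Trpv1+ and Trpv1- nodose pools overlapped (-0.12 ± 2.88, log2, SE, edgeR adjusted p = 0.997). Between the ganglia edgeR's filter on low counts left Adora2a out. DESeq2 gave it adjusted p values of 0.00119 in the Trpv1-tdTomato selection and 0.000447 across both selections, with higher levels in nodose pools, but no group compared had 10 CPM in both pools, and the nodose level came from the first Trpv1+ nodose pool alone. Adora2b, the other Gs-coupled receptor gene (GRCm38, chromosome 11, 62248984 to 62266453, plus strand), had 14.1 CPM in the first capsaicin nodose pool, 5.27 CPM in the second capsaicin jugular pool and 5.43 CPM in the second Trpv1- nodose pool, and 0 in the other 7. In each of those groups the other pool was at 0, so the spread within groups was as large as the levels themselves.

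Of the opioid receptor genes, Oprl1, which encodes the nociceptin receptor (GRCm38, chromosome 2, 181715016 to 181720985, plus strand), had the highest levels. It had 4.19 and 35.3 CPM in the Trpv1- nodose pools and 0 and 0.0182 CPM (3 counts) in the Trpv1+ nodose pools. The Trpv1- nodose pools thus lay above the Trpv1+ nodose pools, as did one group or the other for 40.7% of the 11386 genes tested in that comparison. edgeR did not call the difference (adjusted p = 0.371). DESeq2 gave an adjusted p of 3.38e-05, but one of the Trpv1- nodose pools missed the 10 CPM that a call requires in both pools. The glial gene Sox10 had 12.6 and 2.78 CPM in Trpv1- nodose and 0 and 0.219 CPM in Trpv1+ nodose pools, while all 9 glial markers summed to 4165 and 3727 CPM against 4214 and 4415 CPM, and the part of glial RNA in the Oprl1 values was not tested. Oprl1 had 1.64 and 0.005 CPM in Trpv1+ jugular, 0.103 and 18.7 CPM in capsaicin nodose and 0 and 28.4 CPM in capsaicin jugular pools, where the spread within each group exceeded any difference between the ganglia.

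Oprm1 encodes the mu opioid receptor, the main target of morphine (GRCm38, chromosome 10, 6758506 to 7038198, plus strand). It had 3.47 CPM (693 counts) in the second Trpv1+ jugular pool and 5.43 CPM (75 counts) in the second capsaicin nodose pool. In the other 8 pools it had at most 0.0373 CPM, and 6 pools had none. The pair of pools with Oprm1 belonged to different ganglia in the 2 selections. DESeq2 accordingly called an interaction of ganglion and selection for Oprm1 (adjusted p = 8.06e-06), which edgeR did not call (adjusted p = 0.478), and each side of it rested on a single pool.

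Oprk1, the gene of the kappa receptor (GRCm38, chromosome 1, 5588466 to 5606131, plus strand), had counts in 1 pool only, the first Trpv1- nodose pool, at 11.9 CPM (2478 counts). Oprd1, the gene of the delta receptor (GRCm38, chromosome 4, 132110726 to 132144486, minus strand), never exceeded 0.159 CPM (25 counts). Summed over the 4 opioid receptor genes, the Trpv1+ nodose pools had 0.159 and 0.0243 CPM, the Trpv1+ jugular pools 1.72 and 3.47 CPM and the Trpv1- nodose pools 16 and 35.3 CPM. Capsaicin nodose pools summed to 0.103 and 24.3 CPM, capsaicin jugular pools to 0 and 28.4 CPM. The Trpv1- nodose pools were the only group in which both pools had more than 10 CPM of opioid receptor RNA. They reached it through different genes. The first had 11.9 CPM of Oprk1 and 4.19 CPM of Oprl1, and the second had 35.3 CPM of Oprl1 and no Oprk1. No opioid receptor gene alone had 10 CPM in both pools of a group, and the sum was not tested.

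Per kb of exon, which allows genes to be compared, Gabbr1 was the highest receptor in Trpv1+ nodose pools (33.4 ± 0.79 CPM per kb, SD, n = 2), above Cnr1 (15.5 ± 7.09) and Adora1 (12.4 ± 3.43), which overlapped each other. In Trpv1+ jugular pools the order was Adora1 (19.1 ± 11.1 CPM per kb), Gabbr1 (11.2 ± 2.78), Gabbr2 (6.29 ± 8.3) and Cnr1 (1.4 ± 0.612). The first 3 overlapped their neighbours in this order, and so did Gabbr2 and Cnr1. Cnr1 led in capsaicin nodose pools (113 ± 37.9 CPM per kb) without overlap with the next, Adora1 (21.1 ± 24.2), and in capsaicin jugular pools (20.1 ± 3.44 against 9.42 ± 3.16 for Adora1), again without overlap. In Trpv1- nodose pools Cnr1 (25.1 ± 18.4 CPM per kb) and Gabbr1 (17.6 ± 4.88) overlapped. The cDNA was primed at the poly(A) tail, so a level per kb also depends on how much of each transcript was copied.

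Over whole comparisons, edgeR called none of the 10 receptors. Between jugular and nodose neurons of the Trpv1-tdTomato selection 4 receptors passed edgeR's filter on low counts, 0 were called (0.318% of all genes tested) and 2 had an unadjusted p under 0.05. DESeq2 gave 8 an adjusted p, of which 3 (Cnr1, Oprm1 and Adora2a) were past 0.1 and 1 also met the CPM condition of a call (3.37% of all genes). In the capsaicin selection edgeR tested 6, called 0 (0% of all genes) and gave 2 an unadjusted p under 0.05, and DESeq2 gave 7 an adjusted p and called 1 (6.58%). Between Trpv1+ and Trpv1- nodose neurons edgeR tested 6, called 0 (0.0527% of all genes) and gave 2 an unadjusted p under 0.05. DESeq2 gave 9 an adjusted p there, of which 3 (Oprk1, Oprl1 and Adora2b) were past the threshold, but none had 10 CPM in both pools of a group, so that 0 were called (2.43% of all genes). Across both selections edgeR tested 7, called 0 (0.577% of all genes) and gave 2 an unadjusted p under 0.05, and DESeq2 gave 9 an adjusted p, 3 of them past the threshold (Adora2a was the third), and called 2 (7.79%). For the interaction edgeR tested 7, called 0 (0% of all genes) and gave 1 an unadjusted p under 0.05. DESeq2 gave 8 an adjusted p there and called 1 (16.2%). An interaction call rested on the adjusted p alone, without the fold and CPM conditions of the other comparisons. With the spread of these replicates, 8-fold differences were simulated in 200 genes. edgeR recovered 20% of these genes in the Trpv1-tdTomato selection, 2.5% in the capsaicin selection and 10% across both. A missed call here thus does not show that levels were alike. Of the genes past an adjusted p of 0.1 in these simulations, 9.09%, 44.4% and 13% in turn had no simulated difference.

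**Figure D3:**
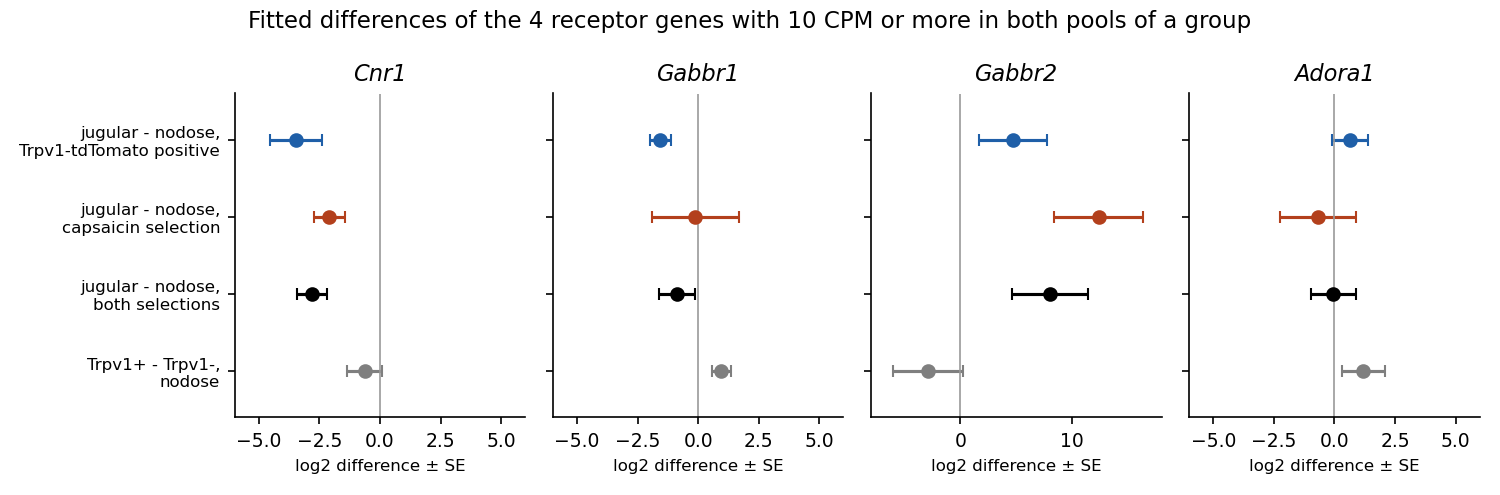
Log2 differences fitted by edgeR for Cnr1, Gabbr1, Gabbr2 and Adora1 (points) with their standard errors (bars) in 4 comparisons; the scale of Gabbr2 is wider than the others. Cnr1 lies at -3.46, -2.10 and -2.82 in the 3 jugular minus nodose comparisons, and no point shown passed the adjusted p threshold in edgeR.

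Around the receptors, 9 lists with 72 genes of their ligands, enzymes and signalling partners were followed. In the Trpv1-tdTomato selection 49 of these were tested between the ganglia, and edgeR called 0 higher and 1 lower in jugular neurons, beside 0.318% of all genes tested, and DESeq2 called 1, beside 3.37%. Of the 36 tested in the capsaicin selection edgeR called none, as of all genes (0%), and DESeq2 called 7, beside 6.58%. Across both selections 51 were tested, and edgeR called 2 higher and 1 lower, beside 0.577% of all genes, and DESeq2 called 10, beside 7.79%. None of the 49 tested between Trpv1+ and Trpv1- nodose neurons was called by edgeR (0.0527% of all genes), and DESeq2 called 1 (2.43%). The numbers tested are those past edgeR's filter on low counts. DESeq2 had no such filter, so its calls and shares are over every gene with a count in the pools compared.

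Gnas, which encodes the stimulatory alpha subunit Gs that the products of Adora2a and Adora2b use, was the gene called lower. Its level was 6761 and 6276 CPM in Trpv1+ nodose against 2195 and 2020 CPM in Trpv1+ jugular pools. Capsaicin nodose pools had 1846 and 2759 CPM against 798 and 822 CPM in capsaicin jugular pools. The Trpv1- nodose pools had 3036 and 2816 CPM of Gnas, between the Trpv1+ nodose and the Trpv1+ jugular pools. Trpv1+ minus Trpv1- nodose, Gnas was at 1.18 ± 0.12 (log2, SE, edgeR adjusted p = 0.224), not called. In the capsaicin selection alone its jugular minus nodose difference was -1.13 ± 0.46 (edgeR adjusted p = 0.36), not called. Gnas fell by 1.62 ± 0.10 (log2, SE) in jugular neurons of the Trpv1-tdTomato selection (edgeR adjusted p = 0.0196) and fell by 1.42 ± 0.17 across both selections (edgeR adjusted p = 0.00396). The first call was lost when any 1 pool was left out (adjusted p 0.325 to 0.702) and in DESeq2 (adjusted p = 0.625), and the second was kept without any 1 of the 8 pools (0.00236 to 0.0296). The Gnas locus holds several overlapping transcripts, which these counts do not separate. Of the 7 alpha subunit genes, all tested across both selections, the inhibitory ones were not called, and their most abundant member Gnao1 had 216 to 920 CPM over the 10 pools.

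Among 11 genes of adenosine production, uptake and breakdown, Nt5e, whose enzyme CD73 makes adenosine from AMP outside the cell, rose in jugular neurons across both selections (edgeR adjusted p = 0.028). It had 7.44 and 53.4 CPM in Trpv1+ jugular and 48 and 299 CPM in capsaicin jugular pools, and at most 0.103 CPM in the nodose pools. Without the second capsaicin jugular pool the edgeR adjusted p of Nt5e was 0.41, and with the replicate number as a block it was 0.164. Acpp, whose phosphatase also makes adenosine from AMP, had 44.2 and 76.5 CPM in Trpv1+ jugular and 266 and 361 CPM in capsaicin jugular pools, against at most 10.6 CPM in nodose pools. DESeq2 called Acpp higher in the capsaicin selection and across both selections, and edgeR called it in neither. Adk, the kinase that removes adenosine inside cells, was the most abundant gene of the list. It had 79.9 and 291 CPM in Trpv1+ jugular against 24.3 and 55 CPM in Trpv1+ nodose pools. Capsaicin jugular pools had 1648 and 498 CPM of Adk against 346 and 373 CPM in capsaicin nodose pools. Across both selections the jugular minus nodose difference of Adk was 2.01 ± 0.55 (log2, SE, edgeR adjusted p = 0.261). DESeq2 called Adk there and edgeR did not. Over the 7 tested genes of the list the median jugular minus nodose difference was 1.05 (log2), beside 0.18 over all genes tested. Slc29a1 (-1.93 ± 1.86) and Ada (-1.45 ± 3.65) went the other way, and neither was called.

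Rgs4, which speeds the shut-off of Gi/o signals, rose in jugular neurons across both selections by 2.03 ± 0.41 (log2, SE, edgeR adjusted p = 0.092). It had 362 and 210 CPM in Trpv1+ nodose against 626 and 846 CPM in Trpv1+ jugular pools, and 375 and 766 CPM in capsaicin nodose against 2115 and 3850 CPM in capsaicin jugular pools. The Trpv1- nodose pools, which are not in that fit, had 740 and 965 CPM of Rgs4, overlapping the Trpv1+ jugular pools. Trpv1+ minus Trpv1- nodose, Rgs4 was at -1.55 ± 0.34 (log2, SE, edgeR adjusted p = 0.366), not called. The call of Rgs4 was lost without the second Trpv1+ nodose pool or any 1 of the 4 capsaicin-selected pools (adjusted p up to 0.199, without the second capsaicin jugular pool), with the replicate number as a block (adjusted p = 0.119) and with DESeq2's size factors in edgeR (adjusted p = 0.117). Rgs10, of the same family, had 736 and 714 CPM in Trpv1+ jugular against 73 and 33.7 CPM in Trpv1+ nodose pools; DESeq2 called it there and across both selections, and edgeR did not. Over the 14 kinases, arrestins and RGS genes tested across both selections the median difference was 1.28 (log2), beside 0.18 over all genes tested. edgeR called 1 of them (0.577% of all genes) and DESeq2 called 3, namely Rgs4, Rgs7 and Rgs10 (7.79% of all genes). Members lay on both sides of 0, with Rgs17 at -1.46 ± 0.71 (log2, SE, edgeR adjusted p = 0.496), not called.

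**Figure D4:**
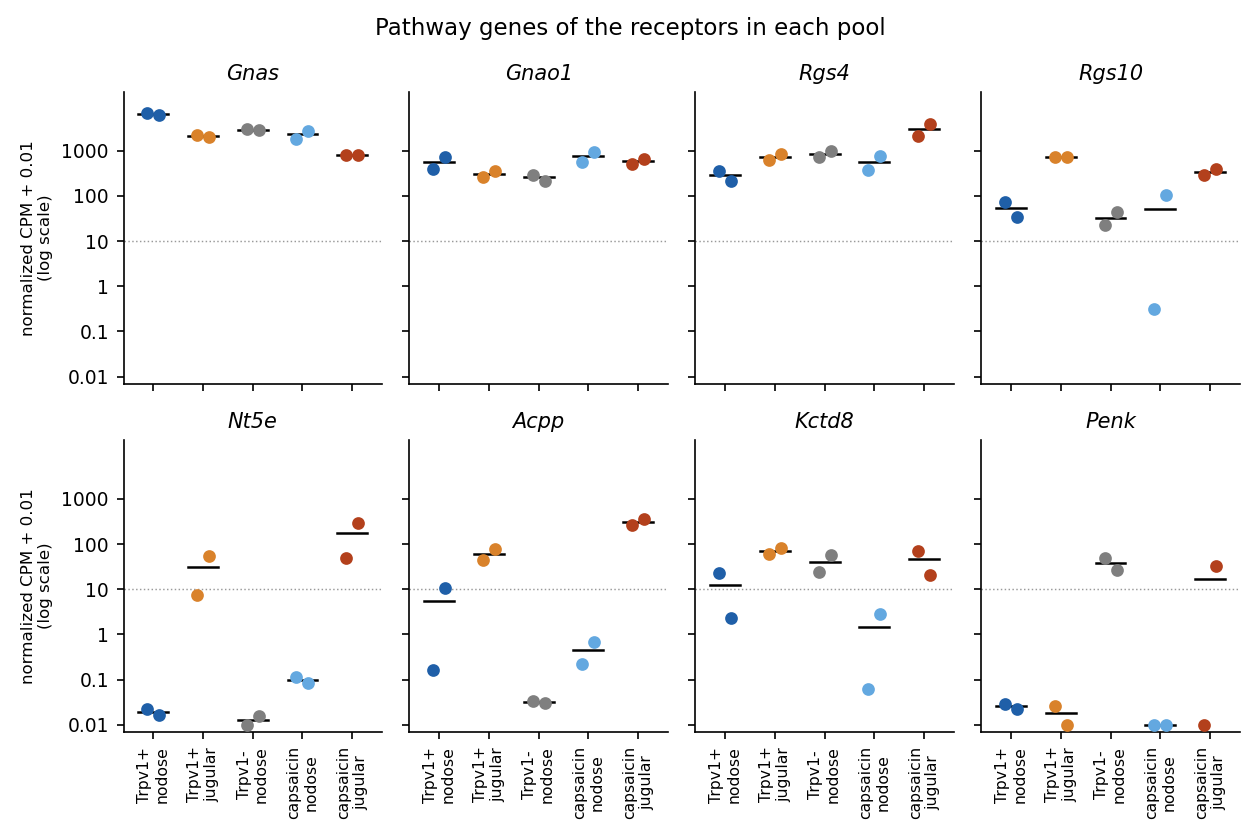
Normalized CPM plus 0.01 on a log axis for 8 genes of the followed lists, 1 point per pool, 2 pools per group, with a bar at the group mean and a dotted line at 10 CPM. Gnas is lower, and Rgs4, Nt5e and Acpp are higher, in both Trpv1+ jugular pools than in both Trpv1+ nodose pools. The same holds for capsaicin jugular against capsaicin nodose pools. A gap in the same direction in both selections was seen for 9.96% of the 11959 genes tested, and the genes shown were picked from the 72 followed. For Rgs4 the Trpv1- nodose pools overlap the Trpv1+ jugular pools.

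The other lists held no call by edgeR. Of the opioid peptide precursors, Penk, the enkephalin precursor, had 50.2 and 26.7 CPM in the Trpv1- nodose pools, 32.9 CPM in the second capsaicin jugular pool and at most 0.0191 CPM in the other 7 pools, and DESeq2 called it lower in Trpv1+ than in Trpv1- nodose neurons. Pdyn, the dynorphin precursor, was at 0 in all 10 pools. Among the endocannabinoid genes, Abhd12, a lipid hydrolase, had 144 to 227 CPM in the Trpv1-tdTomato selection, at most 0.0725 CPM in capsaicin nodose and 26.4 and 21.8 CPM in capsaicin jugular pools. Mgll, which breaks down 2-arachidonoylglycerol, had 46.5 to 142 CPM in all 6 pools of the Trpv1-tdTomato selection and 0 in all 4 of the capsaicin selection. Cnrip1, a CB1-interacting protein, was found in every pool, at 15.9 to 185 CPM.

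Of the auxiliary subunits that bind GABA-B2, Kctd8 had 59.2 and 81.3 CPM in Trpv1+ jugular and 71.2 and 20.5 CPM in capsaicin jugular pools, against 22.4 and 2.34 CPM in Trpv1+ nodose and 0.0516 and 2.83 CPM in capsaicin nodose pools. In each selection both jugular pools of Kctd8 thus lay above both of these nodose pools. A gap in the same direction in both selections was seen for 9.96% of the 11959 genes tested. The Trpv1- nodose pools had 24.2 and 56.3 CPM of Kctd8, between the Trpv1+ nodose and the Trpv1+ jugular pools. Across both selections the jugular minus nodose difference of Kctd8 was 3.93 ± 1.88 (log2, SE), which DESeq2 called and edgeR did not (adjusted p = 0.488). Kctd12 lay on the other side of 0, at -2.71 ± 1.68 (edgeR adjusted p = 0.707), not called. The vesicular GABA transporter gene Slc32a1 was at 0 in all 10 pools, and Gad2, which makes GABA, had at most 4.84 CPM. Gad1, which also makes GABA, had 11.2 CPM in the first Trpv1+ jugular pool and at most 0.00479 CPM elsewhere. Abat, which breaks GABA down, was the most abundant gene of that list, at 0.0725 to 210 CPM. Of the effector channels, Cacna1b, the N-type calcium channel, had 0 to 200 CPM and Kcnj3, a GIRK subunit, 0 to 76.8 CPM, and Kcnj6 was at 0 in all pools. Of the 9 adenylyl cyclase genes, Adcy2 was the most abundant on average, at 0 to 81.2 CPM with 0 in 3 of the capsaicin-selected pools, and none was called by edgeR.

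For the 4 receptors with at least 10 CPM in both pools of a group, the genes with the most similar pattern were sought among 7842 genes, by Pearson correlation of log2(CPM + 1) over the 10 pools. The pools share selection and depth, and these values are descriptions. Closest to Cnr1 were Dync1li1 (r = 0.980), Slc2a3 (0.962) and Exoc8 (0.960). Closest to Gabbr1 were Baz1b (r = 0.935), Mrpl11 (0.933) and Sgol2a (0.917). Closest to Gabbr2 were Zdhhc12 (r = 0.950), B4galt2 (0.929) and Scrn3 (0.914), each at or under 0.0516 CPM in both capsaicin nodose pools. Closest to Adora1 were Denr (r = 0.950), Emc4 (0.911) and 2810002D19Rik (0.883), all with their highest level in the second capsaicin nodose pool, where Adora1 was also highest.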

How the data were processed

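The labels put 10 pools into 5 groups of 2, numbered as in the labels. The files deposited by the authors hold raw counts, 1 value per gene symbol and pool. Per the submitters' processing notes and the methods, reads were called with CASAVA 1.8.2, aligned to mm10 with TopHat2 2.0.9 and Bowtie2 2.1.0.0 and counted with HTSeq; the annotation and strand setting are not given in the sources used here. Libraries came from whole cells by poly(A)-primed cDNA synthesis and amplification without molecular identifiers, so counting limits cover counting error only.

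CPM was the count over DESeq2-type size factors (5492 genes with counts in all pools), scaled by the geometric mean total. Gene positions and exon lengths came from GENCODE for GRCm38. The main test was edgeR 4.0.16 (R 4.3.3), with filterByExpr, TMM and the quasi-likelihood F test, and standard errors were taken as the difference over the root of F. A call needed a fold of at least 2, an adjusted p of no more than 0.1 and at least 10 CPM in both pools of a group compared. For the interaction it needed the adjusted p alone. The across-selection fit held 8 pools with the selection as covariate, and the interaction was a separate term. The scripts were tested on simulated data. DESeq2 1.42.0, its size factors, no filter, a replicate block, no Rn45s and each pool left out were alternatives.

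The receptors and lists were chosen with earlier results of these data known. Named genes were the 10 receptors, called list genes, up to 4 per list by highest mean CPM, and the 3 most correlated genes. Slc32a1, Kcnj6, Slc29a1 and Ada were named after their values were seen. Nothing says which mouse a pool came from, so p-values measure only the spread between pools. Same-numbered pools did not deviate together (correlations -0.027 to 0.016 over 10 pairs of groups). One of the nodose markers is not reported here.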

Additional observations from a re-analysis of the deposited data

How the results depend on the processing

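Of the 10 receptors edgeR called 0 in each of the 5 comparisons, and DESeq2 called 1 between the ganglia in the Trpv1-tdTomato selection, 1 in the capsaicin selection, 2 across both selections and 1 for the interaction. Across both selections edgeR called 1, Cnr1, with DESeq2's size factors (adjusted p = 0.0644) and 1 without a filter on low counts (adjusted p = 0.0243). Every other alternative run, each pool left out included, gave 0 calls. DESeq2's size factors moved the median difference of all genes by -0.11 (log2) in the capsaicin selection, by -0.13 across both selections and by -0.35 for the interaction. The number of receptor and group pairs with at least 10 CPM in both pools was 15, and 15 or 16 under other scalings.

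Same-numbered pools did not deviate together, but with replicates this widely spread that cannot show whether they shared a mouse. With the replicate block edgeR called 0 receptors in all 5 comparisons (13, 20, 1, 41 and 0 of all genes, against 35, 0, 6, 69 and 0 without it). Signs turned only for differences far from the threshold. With the replicate block, Oprl1 was -0.79 and Gabbr1 0.09 in the capsaicin selection, and Adora1 0.18 across both selections. By DESeq2, Oprm1 was -0.10 across both selections and Adora2b 3.38 for the interaction. With 1 pool left out, the difference ranged from -0.12 to 1.14 for Adora1 in the Trpv1-tdTomato selection; in the capsaicin selection from -10.11 to 7.23 for Oprl1, -0.72 to 0.96 for Gabbr1, -1.50 to 1.43 for Adora1 and -10.04 to 8.76 for Adora2b; between Trpv1+ and Trpv1- nodose neurons from -1.23 to 0.35 for Cnr1, -9.25 to 1.72 for Gabbr2 and -11.48 to 1.22 for Adora2a; across both selections from -6.61 to 8.36 for Oprm1, -0.50 to 0.91 for Adora1 and -3.15 to 3.21 for Adora2b; and for the interaction from -18.60 to 1.93 for Oprl1, -2.09 to 0.83 for Adora1 and -12.19 to 10.96 for Adora2b. Cnr1 kept its sign between the ganglia in all of these, at -3.98 to -2.88, -2.36 to -1.92 and -3.04 to -2.47 in the 3 comparisons. Where a group keeps 1 pool, that pool is assumed to vary like the other groups. The causes were not tested.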
